A study of Saccharomyces cerevisiae with 6 samples.

Results

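The Rab GTPases of membrane traffic in budding yeast are described here across cells that did or did not carry an active mammalian lipid kinase. They are YPT1, YPT6, YPT7, YPT10, YPT31, YPT32, YPT52, YPT53, VPS21 (also called YPT51) and SEC4. They were chosen by gene name in the platform annotation, not by their values, and make up 10 of the 5350 genes tested. Each of the 10 genes had 1 probe set, and none of these probe set names had the suffix given to sets whose probes match more than one sequence. All 10 passed the filter on low values.

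The cultures were transformants of Saccharomyces cerevisiae strain BY4741, a haploid laboratory strain. PI3K cultures expressed p110α-CAAX, the active catalytic part of mammalian phosphoinositide 3-kinase carrying a membrane-targeting motif. KD cultures expressed the kinase-dead form p110α-CAAX K802R. Both groups were grown in synthetic medium with raffinose and then received 2% galactose for 4 h at the same temperature, which induced either protein from a GAL promoter, so the controls carried the protein and the galactose treatment too. There were 3 biological replicates in each group, with 1 array for each. The labels name no other allele and do not say how many transformants were used.

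Rab proteins are small GTPases that mark membranes in cells. A Rab is loaded with GTP by an exchange factor (GEF), then binds effectors such as tethers and motors that bring a vesicle to its target, and is switched off by a GTPase-activating protein (GAP). In yeast, Ypt1 acts between the endoplasmic reticulum and the Golgi, Ypt31 and Ypt32 at the exit from the Golgi, and Sec4 on secretory vesicles that reach the plasma membrane. Ypt6 serves traffic back to the Golgi, Ypt7 fusion at the vacuole, and Vps21, Ypt52 and Ypt53, the relatives of mammalian Rab5, the early steps of endosomal traffic.

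The 6 arrays had medians between 9.49 and 9.54 on the log2 scale, and pairwise Pearson correlations over the 5350 genes lay between 0.965 and 0.995. PRM5, a reporter of cell wall stress, was higher in PI3K (log2 difference 2.69, limma adjusted p = 0.00447). The 5 marker genes of mating type a, that of BY4741, had log2 values of 10.23 to 12.49 on PI3K arrays and 10.42 to 12.85 on KD arrays. The 4 alpha markers had 4.32 to 8.41 on PI3K arrays and 4.51 to 8.60 on KD arrays. Within these ranges the alpha marker STE3 was higher on all PI3K arrays (log2 difference 0.85, limma adjusted p = 0.145). The a marker MFA2 was lower on all of them (-0.39, limma adjusted p = 0.213), and the other markers overlapped between groups. Of the genes that BY4741 lacks, URA3 (3.33 to 3.51 on PI3K arrays and 3.11 to 3.22 on KD arrays) and MET17 (3.57 to 3.95 on PI3K arrays and 3.57 to 4.03 on KD arrays) were near the bottom of the range, while HIS3 and LEU2 had values above 10 on each array. The labels do not name the markers of the plasmids, so these values could not be assigned to the genome or to a plasmid. The arrays were also split into sides, each holding arrays of both groups by construction. Once group means were removed, 1 principal component took up 70.4% of what was left and set PI3K 1, PI3K 3 and KD 3 (side A) apart from PI3K 2, KD 1 and KD 2 (side B). The split takes the sign of the component, and with group means removed each group must have arrays on both sides. How far each array lay from the dividing point is not given. The labels name no batch. Differences within a side are given for the 10 Rab genes, the list medians and part of the other genes named, each resting on 1 unreplicated array in one of the groups.

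No Rab GTPase transcript passed the limma test between PI3K and KD, where 13 of the 5350 genes, or 0.243%, did, and 2 of the 10 had an unadjusted p under 0.05, both higher in PI3K, beside 14.5% of all genes (7.94% higher in PI3K). The values are levels in RNA from whole cultures, so fewer expressing cells and less RNA per cell cannot be told apart. YPT53 stood nearest to the threshold, with a difference of 0.81 on the log2 scale in favour of PI3K. SEC4 (0.33) and YPT52 (0.19) also had PI3K arrays that all lay above the KD arrays. The other 7 genes overlapped between groups. Their log2 differences lay between -0.19 for YPT32 and 0.15 for YPT1. Groups that did not overlap with PI3K on top were found for 545 of all genes, or 10.2%, so the 3 of 10 here rest on few genes and carry no test. Of the 10 Rab genes 8 had a positive difference and 2 a negative one. Their median was 0.09, beside -0.00180 over all genes tested, 49.7% of which were positive. With an array left out it lay between -0.00705 (without PI3K 2) and 0.17 (without KD 1), and without KD 3 it was 0.0125. On side A it was 0.15, with 9 of 10 differences positive, beside 0.050 over all genes, where 3047 of 5350 were positive. On side B it was 0.20, with all 10 positive, beside -0.015 over all genes, where 2539 were positive. Side A rests on the single KD array KD 3. Side B rests on the single PI3K array PI3K 2, which was above its group mean for all 10 Rab genes. With the side covariate the Rab median was 0.18.

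**Figure D1:**
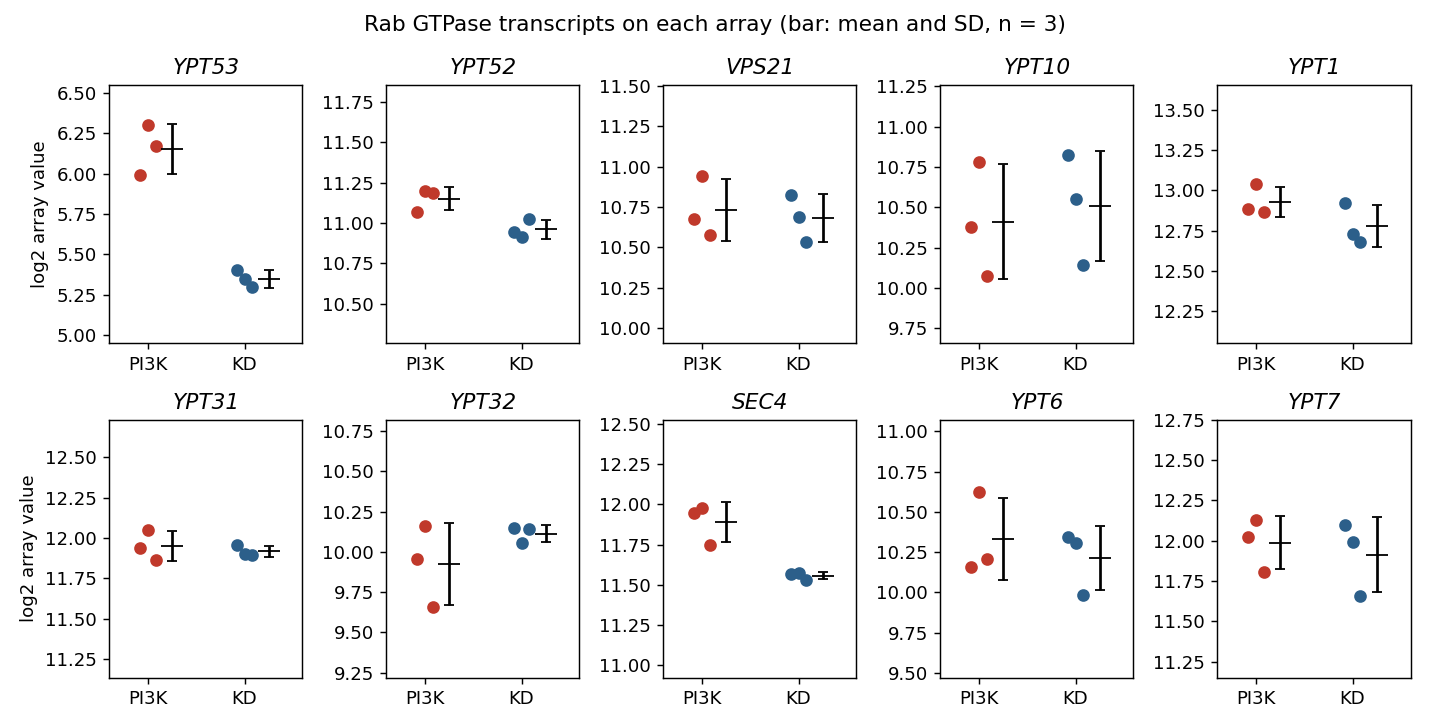
Log2 array value of each of the 10 Rab genes, with the 3 PI3K arrays left of the 3 KD arrays, and the mean and SD of each group beside its points. Each panel spans the same height on its own axis. Only in the panels of YPT53, YPT52 and SEC4 do the PI3K points all lie above the KD points.

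**Figure D2:**
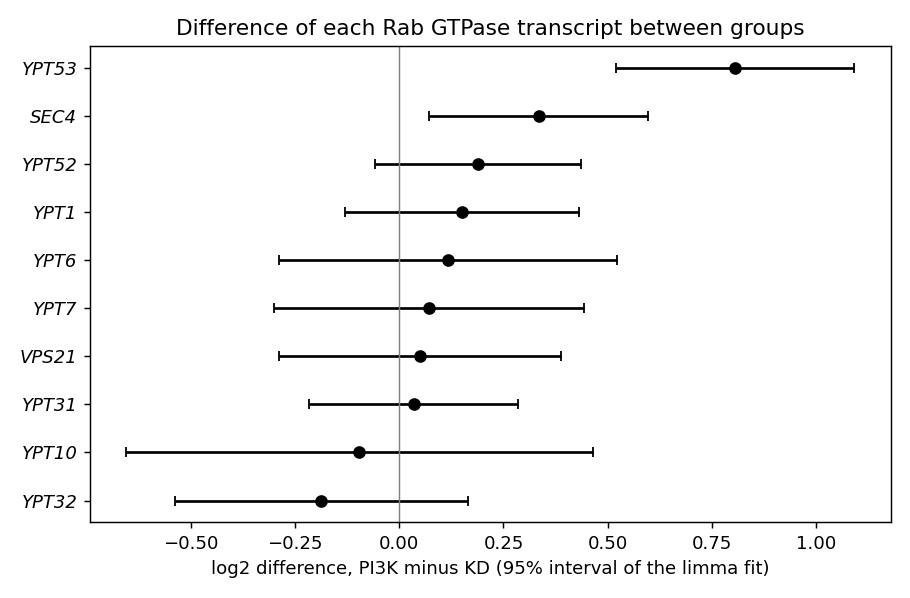
Log2 difference of each Rab gene, PI3K minus KD, with the 95% interval of the limma fit. The intervals of YPT53 (0.52 to 1.09) and SEC4 (0.07 to 0.60) lie above 0 before any adjustment for the number of genes, and the other 8 include 0.

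Among the endosomal Rab genes, YPT53 (YNL093W) had log2 values of 5.99, 6.30 and 6.17 on PI3K arrays 1 to 3, against 5.40, 5.34 and 5.29 on KD arrays 1 to 3. Every PI3K array was higher than every KD array, and the gap between the nearest arrays was wider than the range within either group. The group means were 6.15 ± 0.16 in PI3K and 5.35 ± 0.055 in KD (SD, n = 3 each), a 1.75-fold difference. The log2 difference was 0.81 (SE 0.12, 95% interval 0.52 to 1.09). Its unadjusted p of 0.000288 was the 16th smallest of the 5350, and the limma adjusted p of 0.0964 missed the threshold. Side A alone gave 0.78 and side B alone 0.93. When the side entered the model as a covariate YPT53 passed (log2 difference 0.86, limma adjusted p = 0.0130), but the sides were found from these same values, which makes such p-values too small. YPT53 is known as a gene that responds to cell stress. Its signal lay in the lower part of the range of these arrays, and at a stricter filter of log2 6 on 3 arrays the gene was not tested. After quantile normalisation its log2 difference was 0.63 (limma adjusted p = 0.131). With robust variances and a variance trend over signal level, its SE was 0.16 and its limma adjusted p 0.114 (unadjusted p = 0.00122). URA3, which lay lower still, also had PI3K arrays (3.33 to 3.51) that were all above its KD arrays (3.11 to 3.22). MET17, low as well, overlapped between groups (3.57 to 3.95 on PI3K arrays and 3.57 to 4.03 on KD arrays). Neither of these marker genes passed the filter, so neither was tested. The part of low signal in the YPT53 difference was not tested.

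YPT52 (YKR014C), another Rab5 relative, had log2 values of 11.07, 11.20 and 11.19 on PI3K arrays, against 10.95, 10.91 and 11.03 on KD arrays. The groups did not overlap, but PI3K 1 lay just above KD 3. The log2 difference was 0.19 (SE 0.10, 95% interval -0.06 to 0.44, limma adjusted p = 0.479). Side A gave 0.10 and side B 0.27.

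VPS21 (YOR089C), which encodes the main Rab5 relative of yeast, had log2 values of 10.68, 10.94 and 10.58 on PI3K arrays, against 10.83, 10.69 and 10.53 on KD arrays. The arrays of the groups were mixed, with the highest and the second lowest value both in PI3K. Its log2 difference was 0.05 (SE 0.14, 95% interval -0.29 to 0.39, limma adjusted p = 0.923), and its sign changed between settings. Side A gave 0.095 and side B 0.19.

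The change of YPT53 was then set against that of its relatives on the same arrays. Relative to VPS21, and with the KD mean set to 0, YPT53 stood at 0.65, 0.69 and 0.93 on PI3K arrays, against -0.09, -0.01 and 0.10 on KD arrays. Relative to YPT52 it stood at 0.54, 0.72 and 0.60 on PI3K arrays, against 0.07, 0.04 and -0.12 on KD arrays. The groups were apart for both pairs. The log2 change of YPT53 exceeded that of VPS21 by 0.76 and that of YPT52 by 0.62, and within sides A and B the excess was 0.69 and 0.74 over VPS21, and 0.68 and 0.66 over YPT52. An exact two-sided permutation test gave p = 0.1 for each, which is the smallest that 3 arrays against 3 allow, so the test could not reach 0.05 whatever the values. Adjusted over the 3 pairs compared (the third was YPT31 and YPT32) the p-values were 0.1. Against the other 7 Rab genes the change of YPT53 was larger by between 0.47 (SEC4) and 0.99 (YPT32), again as values with no test.

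**Figure D3:**
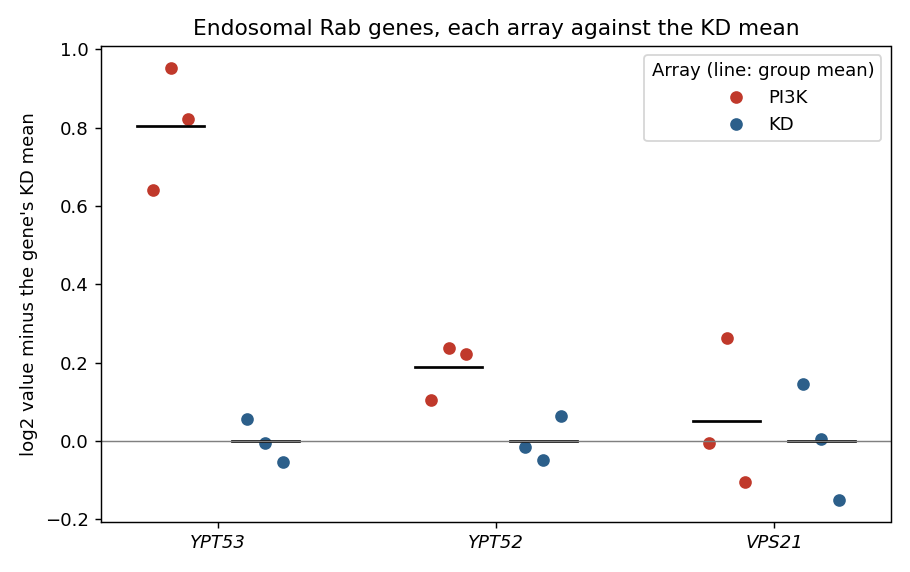
Log2 value of each array minus the KD mean of the gene, for YPT53, YPT52 and VPS21, with PI3K arrays left of KD arrays and a line at each group mean. PI3K arrays of YPT53 lie between 0.64 and 0.95, those of YPT52 between 0.11 and 0.24, and those of VPS21 between -0.11 and 0.26, where KD arrays of VPS21 reach 0.15.

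YPT10 (YBR264C), a Rab gene of little-known function, varied most between arrays of the same group. It had log2 values of 10.38, 10.78 and 10.07 on PI3K arrays, against 10.82, 10.55 and 10.14 on KD arrays. The SD was 0.36 in PI3K and 0.34 in KD, and the log2 difference of -0.10 (SE 0.24) changed sign when the side was a covariate (0.09). Both sides were also above 0, with 0.082 on side A and 0.094 on side B.

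In the secretory pathway, SEC4 (YFL005W), the Rab of secretory vesicles, had log2 values of 11.95, 11.98 and 11.75 on PI3K arrays, against 11.57, 11.57 and 11.53 on KD arrays. The KD arrays lay within a narrow band and each PI3K array stood above it, PI3K 3 by the least. The means were 11.89 ± 0.12 in PI3K and 11.56 ± 0.022 in KD (SD, n = 3 each), a 1.26-fold difference. The log2 difference of 0.33 (SE 0.11, unadjusted p = 0.0195) did not pass over all genes (limma adjusted p = 0.249). The arrays of side A gave 0.32 and those of side B 0.41.

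YPT1 (YFL038C), the Rab of the step from the endoplasmic reticulum to the Golgi, had log2 values of 12.89, 13.04 and 12.87 on PI3K arrays, against 12.92, 12.73 and 12.68 on KD arrays. KD 1 lay above PI3K 1 and PI3K 3, and the log2 difference was 0.15 (SE 0.12, limma adjusted p = 0.640). It came to 0.19 on side A and 0.21 on side B.

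YPT31 (YER031C) and YPT32 (YGL210W) encode closely related Rabs of the late Golgi that can stand in for each other. YPT31 had log2 values of 11.94, 12.05 and 11.86 on PI3K arrays, against 11.95, 11.90 and 11.89 on KD arrays. YPT32 had log2 values of 9.96, 10.16 and 9.66 on PI3K arrays, against 10.14, 10.05 and 10.14 on KD arrays. Both overlapped between groups. The log2 difference of YPT31 was 0.03 (SE 0.11, limma adjusted p = 0.929) and was -0.01 after quantile normalisation, and that of YPT32 was -0.19 (SE 0.15, limma adjusted p = 0.643). The change of YPT31 exceeded that of YPT32 by 0.22, with an exact permutation p = 0.1 (adjusted p = 0.1). On side A the excess was 0.34 and on side B 0.06. YPT31 alone had 0.00899 on side A and 0.12 on side B, and YPT32 had -0.33 on side A but 0.06 on side B.

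YPT6 (YLR262C), for return traffic to the Golgi, had log2 values of 10.16, 10.62 and 10.21 on PI3K arrays, against 10.35, 10.31 and 9.98 on KD arrays. Its log2 difference was 0.12 (SE 0.17, limma adjusted p = 0.832), and without PI3K 2 it was -0.03, while side A gave 0.20 and side B 0.30. YPT7 (YML001W), the Rab of vacuole fusion, had log2 values of 12.02, 12.13 and 11.81 on PI3K arrays, against 12.10, 11.99 and 11.65 on KD arrays. Its log2 difference was 0.07 (SE 0.16, limma adjusted p = 0.896), and without KD 3 it was -0.06, while side A gave 0.26 and side B 0.086. For both genes the highest array was PI3K 2 and the lowest KD 3, and the groups overlapped.

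Within the groups most of the Rab transcripts moved together from array to array. After group means were removed, the 45 pairs of Rab genes had a median Pearson r of 0.70 over the 6 arrays, and 33 pairs were above 0.5. Over all pairs of the genes tested the median r was 0.03. The share of those pairs above 0.5 was not computed, so the 33 pairs stand without a baseline. The closest pairs were YPT10 with VPS21 (r = 0.98), YPT7 with YPT10 (0.96) and YPT31 with YPT32 (0.93). YPT52 followed the others least: its r was 0.55 with YPT53, between -0.07 and 0.07 with YPT32, YPT31, YPT6, YPT1 and VPS21, and -0.24 with YPT10, -0.34 with SEC4 and -0.49 with YPT7. These points share arrays and the array side, and the values are a description. Of the 10 genes 8 were higher on side B than on side A in both PI3K and KD, against 41.7% of all genes, and the exceptions were YPT32 and YPT52. The part of the array side in these correlations was not tested.

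**Figure D4:**
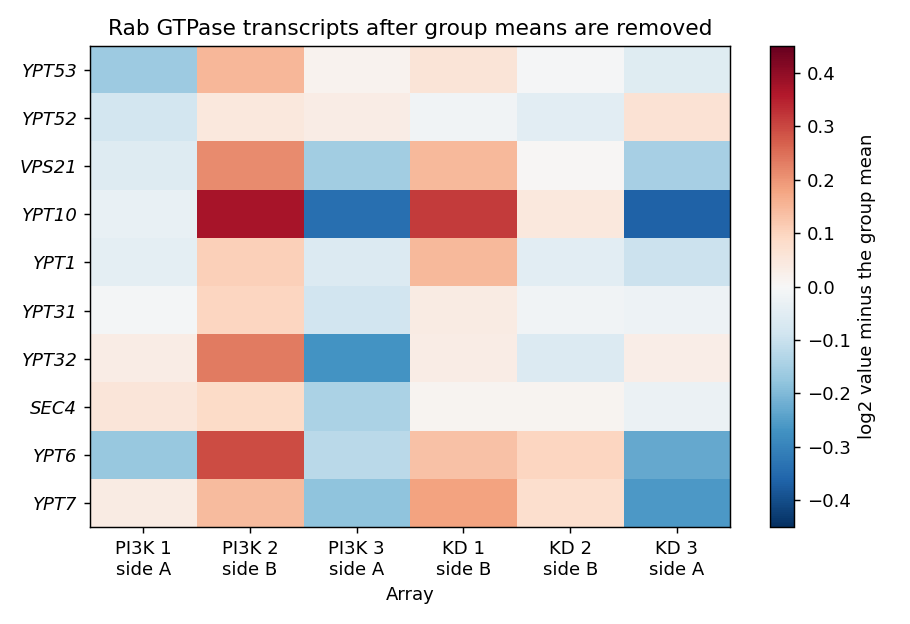
Log2 value of each Rab gene on each array minus its group mean, with PI3K arrays left of KD arrays and the array side under each name. PI3K 2 is above its group mean for all 10 genes, KD 3 is below for all but YPT32 and YPT52, and YPT10 has the deepest colours.

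The 5 genes whose values over the 6 arrays were most like those of YPT53 by Pearson r were PNC1, PIN3, SDH4, EDC2 and LCL3, with r from 0.98 for LCL3 to 0.99 for PNC1. Their log2 differences between PI3K and KD lay between 0.29 for LCL3 and 0.54 for EDC2, and none passed the limma test (adjusted p of 0.125 for EDC2 to 0.261 for LCL3). The genes most like VPS21 were YDR248C, MSL1, RSM10, UPS3 and IGO2, with r of 0.98 to 0.99. Their log2 differences lay between 0.02 for UPS3 and 0.10 for RSM10. Likeness was taken with the group difference left in, so these genes share the separation of YPT53 or the overlap of VPS21 by choice.

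Genes that load, switch off, carry or read the Rabs were examined as lists, with 64 genes tested. None of the 64 passed the limma test in either direction. The unadjusted p was under 0.05 for 11 of the 57 genes of the GEF, GAP, prenylation and effector lists, beside 14.5% of all genes. Of the 57, 7 had this with the higher mean in PI3K, beside 7.94% of all genes. Another 4 had it with the lower mean, beside 6.58% of all genes. The groups did not overlap for 8 of the 57 with PI3K on top, beside 10.2% of all genes, and for 5 with PI3K below, beside 10.5%.

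Of the 18 GEF genes 9 differences were positive and 9 negative, with a median of 0.01. That split depended on the arrays: 14 of 18 were positive on side A (median 0.16) and 10 on side B (0.021). Over all genes 3047 of 5350 were positive on side A and 2539 on side B. The median of the list was -0.11 without KD 3 and 0.12 without KD 1. The ends of the list were TRS65, for a subunit of a TRAPP complex (log2 difference 0.51, SE 0.18, limma adjusted p = 0.274), and SEC2, the exchange factor of Sec4 (-0.28, SE 0.15, adjusted p = 0.443). For the endosomal Rabs, MUK1 had log2 values of 7.44, 7.37 and 7.61 on PI3K arrays, against 7.22, 7.26 and 6.75 on KD arrays. All PI3K arrays of MUK1 were higher, KD 3 lay well below the others, and the log2 difference of 0.40 (SE 0.17, limma adjusted p = 0.333) came to 0.78 on side A and 0.14 on side B. VPS9, the main exchange factor of the same Rabs, had a log2 difference of -0.05 (SE 0.12).

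Among the 9 GAP genes 6 differences were positive, and the median was 0.03. It was 0.25 on side A and 0.017 on side B, and with an array left out it lay between -0.00138 (without PI3K 1) and 0.22 (without PI3K 2). MSB4 and MSB3 encode related GAPs that act on Sec4 and, in the case of Msb3, on endosomal Rabs. MSB4 had log2 values of 9.61, 9.20 and 9.86 on PI3K arrays, against 8.78, 8.68 and 8.97 on KD arrays. The groups were apart, and the log2 difference was 0.74 (SE 0.18, limma adjusted p = 0.176), with 0.76 on side A and 0.47 on side B. MSB3 had a log2 difference of 0.55 (SE 0.18, limma adjusted p = 0.246), with 0.98 on side A and 0.26 on side B. MSB4 passed where the side was a covariate (0.62, limma adjusted p = 0.0477). The lowest of the list was GYP1, a GAP of Ypt1 (-0.29, SE 0.12, adjusted p = 0.357).

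Rabs need a lipid tail to sit on membranes. Of 10 genes for adding it and for moving Rabs on and off membranes 6 were higher in mean in PI3K, and the median was 0.07. Side A gave a median of 0.043 and side B 0.076, and with an array left out it lay between 0.011 (without PI3K 1) and 0.14 (without KD 3). BET2, the catalytic subunit of the enzyme that adds the tail, had log2 values of 10.08, 9.89 and 10.03 on PI3K arrays, against 9.35, 9.26 and 9.71 on KD arrays. The groups did not overlap, and the log2 difference was 0.56 (SE 0.15, limma adjusted p = 0.190), with 0.34 on side A and 0.59 on side B. BET4, its partner subunit, had one of 0.30 (SE 0.13, adjusted p = 0.345). MRS6, the escort protein that presents Rabs to this enzyme, had one of -0.29 (SE 0.12, adjusted p = 0.310), also with the groups apart.

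Of the 20 effector genes 13 had negative differences, beside 2692 of 5350 over all genes, and the list's median was -0.07, beside -0.00180. The lowest was SRO77, one of a pair of genes for Sec4-binding proteins of exocytosis, with log2 values of 6.37, 6.39 and 6.24 on PI3K arrays, against 6.97, 6.91 and 6.57 on KD arrays. The groups were apart (log2 difference -0.48, SE 0.14, limma adjusted p = 0.213), with -0.26 on side A and -0.55 on side B. MYO2, the myosin that carries secretory vesicles, had one of -0.35 (SE 0.10, adjusted p = 0.209), and the highest was PEP5, a subunit shared by the endosomal and vacuolar tethers (0.10, SE 0.15). Of the effectors of Vps21, the tether subunit gene VPS8 had a log2 difference of -0.26 (SE 0.11, limma adjusted p = 0.329), VPS3 one of 0.09 (SE 0.22) and PEP7 one of 0.05 (SE 0.12). On side A the median of the list was 0.12, with 15 of 20 differences positive, and on side B it was -0.10, with 3 positive. Over all genes 3047 of 5350 were positive on side A and 2539 on side B. The sign of the list's median thus depended on the side. That median was -0.26 without KD 3 and 0.022 without KD 1.

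The 7 other traffic GTPases, of the Arf and Sar kinds with YPT11, had a median of 0.10, beside -0.00180 over all genes. None had groups apart, beside 10.2% of all genes with PI3K on top and 10.5% with PI3K below, a count that rests on few genes. The median was 0.22 on side A, 0.093 on side B and 0.20 with the side covariate, but -0.023 without KD 3 and -0.030 with array weights. They ranged from YPT11, a Rab-like gene for organelle inheritance (-0.12, SE 0.11, limma adjusted p = 0.680), to ARL1, a GTPase of the Golgi (0.15, SE 0.16, limma adjusted p = 0.758).

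**Figure D5:**
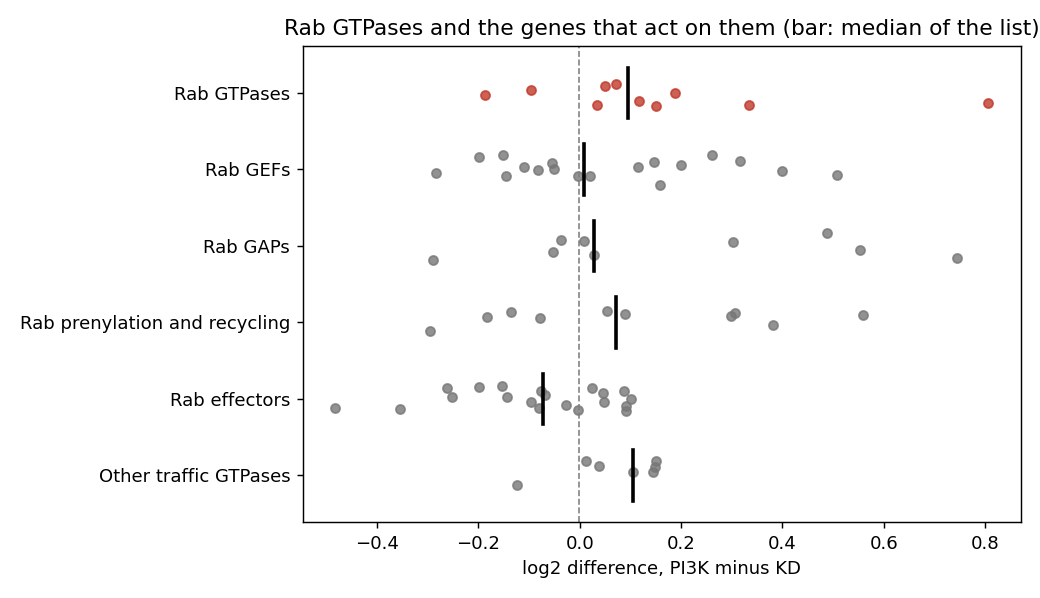
Log2 difference of each gene, PI3K minus KD, for the Rab GTPases and the 5 related lists, with the list's median as a bar and the median of all genes as a dashed line. YPT53 (0.81) is the rightmost Rab GTPase and MSB4 (0.74) the rightmost GAP, and the effector list is the one whose median lies left of the dashed line.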

How the data were processed

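Total RNA of 6 cultures was the starting material, and biotin was the label for 1-colour Affymetrix arrays, per the labels' protocols. The authors deposited 5716 probe set values for each array, made with GCRMA per the submitters' processing notes, a method that removes background and normalises arrays together. The deposited numbers run between 2.49 and 14.70 and are taken as log2 values, although the log base is not given in the sources used here. Scanner signals were not analysed here, so background and saturation could not be judged.

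Names came from the platform annotation, updated by gene identifier from the R64 reference gene table: 5498 probe sets had 1 gene, 0 several and 218 none. Genes that reached a log2 value of 4 on 3 or more arrays were kept (5350 of 5449), each by its probe set of highest mean. PI3K and KD were compared with limma 3.58.1 (R 4.3.3, two-sided, no block). P-values were adjusted by Benjamini-Hochberg over all 5350 genes, and 0.05 was the threshold. The fit had 4 residual and 2.97 prior degrees of freedom. With 3 arrays a group, precision is limited. Changes within 3 pairs of genes were compared by exact permutation over arrays. Other settings were no filter, a filter at 6, median-centring, quantile normalisation, a variance trend, array weights, a replicate block, the side covariate, the mean over a gene's probe sets and leaving out each array.

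The Rab genes, related lists, sides and tests were chosen with earlier results of these data known. The text names all 10 Rab genes, the extremes and any called gene of each list, the 5 genes most like YPT53 and the 5 most like VPS21, and, whatever their values, VPS9, MUK1, VPS3, VPS8, PEP7, MSB3 and YPT11. BET4 and MYO2 fall outside this rule and were chosen after their values were seen. Plots used matplotlib 3.10.9 (Python 3.11.15).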

Additional observations from a re-analysis of the deposited data

How the results depend on the processing

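YPT53 could be fitted under 14 settings, where its log2 difference lay between 0.63 and 0.89 and its limma adjusted p between 0.000708 and 0.399. It gave 0.73 to 0.89 with an array left out, with no call. It passed with the side covariate (0.86) and with array weights (0.68). The estimate of these weights did not converge, and the highest weight was 37.4 times the lowest. Array weights put 3 Rab GTPases, 9 GEF, 4 GAP, 7 prenylation and 10 effector genes past the threshold, and the side covariate 1 Rab GTPase and 1 GAP. The 13 genes called over the whole table became 2808 with array weights, 185 with the side covariate, 40 with the replicate block and 0 to 6 with an array left out. The 0 calls of limma came without KD 2, where 476 genes had an unadjusted p under 0.05.

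The replicate numbers were not taken to pair the cultures, since the labels state no pairing. Deviations of same-numbered arrays from their group means correlated at -0.49, 0.48 and 0.39 for numbers 1, 2 and 3. These mixed values cannot decide whether the cultures were paired. With the replicate block the YPT53 difference stayed at 0.81 (limma adjusted p = 0.0669), and no Rab or list gene was called. With an array left out, the excess of the YPT53 change was 0.67 to 0.81 over VPS21 and 0.56 to 0.66 over YPT52, and that of YPT31 over YPT32 was 0.13 to 0.29. The last was 0.0567 within side B. Quantile normalisation gave the lowest excess of YPT53 among the settings, 0.60 over VPS21 and 0.46 over YPT52, and 0.17 for YPT31 over YPT32.

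Signs turned for small log2 differences. Array weights gave -0.12 for YPT6, -0.0269 for VPS21, -0.00820 for PEP5, -0.19 for VPS3 and -0.0607 for PEP7. Quantile normalisation gave -0.0141 for YPT31, and the side covariate 0.0879 for YPT10 and 0.00524 for VPS9. With an array left out, YPT6 ranged from -0.0293 to 0.203, YPT7 from -0.0575 to 0.164, YPT10 from -0.281 to 0.0733, YPT31 from -0.0147 to 0.0779 and VPS21 from -0.0561 to 0.129. PEP5 ranged from -0.0441 to 0.186, VPS9 from -0.112 to 0.0313, VPS3 from -0.154 to 0.243 and PEP7 from -0.0353 to 0.119. Each negative end of YPT6, YPT31 and VPS21 came without PI3K 2, and those of YPT7, PEP5, VPS3 and PEP7 without KD 3. The cause was not tested.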
